A study of Homo sapiens with 6 samples.

Results

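The inflammasome and interleukin-1 genes examined here are CASP1, CASP4, CASP5, PYCARD, NLRP1, NLRP3, IL18, IL1A, IL1B and GSDMD. They were found on the array as every probe set whose only platform gene symbol is 1 of these 10, which gave 31 probe sets of the 49293 that are not controls. Expression was compared in ARPE-19, an established line of human retinal pigment epithelium, between 3 arrays of cells given 10 mU/ml glucose oxidase for 3 h and 3 arrays of untreated cells (0 h). Glucose oxidase makes hydrogen peroxide from the glucose of the medium. The protocol says that all cells had been transfected with a GFP plasmid 48 h earlier, while the sample descriptions name a GFP construct with alpha satellite for the 3 h arrays and GFP alone for the 0 h arrays. The groups may therefore differ in the construct as well as in the treatment, and these cannot be told apart. No array of cells held for 3 h without the enzyme was analysed here. Nothing in the labels says that replicates came from separate cultures, so p-values measure the spread between these arrays, which may be technical.

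Inflammasomes are protein platforms that assemble in the cytosol when a sensor such as NLRP1 or NLRP3 meets a danger signal. The adaptor ASC, encoded by PYCARD, then joins the sensor to caspase-1, which cuts the precursors of interleukin-1 beta and interleukin-18 and cuts gasdermin D so that it forms membrane pores. Caspase-4 and caspase-5 bind bacterial lipopolysaccharide inside the cell and also cut gasdermin D, while interleukin-1 alpha is an alarm cytokine that is active without caspase-1. In the retinal pigment epithelium this pathway is studied for its part in age-related macular degeneration. The values below are transcript levels and carry no information on assembly, cleavage or release.

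The genes of caspase-1, caspase-4, the adaptor and the cytokines interleukin-18 and interleukin-1 alpha were lower after 3 h, while those of the sensors, the pore former and interleukin-1 beta did not pass the test and that of caspase-5 was too dim to test. Of the 31 probe sets, 19 were bright enough to test, with a mean over the 6 arrays at or above a floor of 4.64 (log2 value), and they cover 9 of the 10 genes. Of these 19, 13 were called lower at 3 h, 6 were not called and 0 were called higher in limma at an adjusted p under 0.05, with 1 higher at an unadjusted p under that value. Over all 29576 tested probe sets, 25.8% were called lower and 25.6% higher (51.4% in either direction), which is the level against which the count of members stands. The count of 0 became 1 without replicate 3 at 0 h, replicate 1 at 3 h or replicate 3 at 3 h, through a GSDMD probe set in the first 2 cases and NLRP3 in the last. The median difference was -0.48 over the 19 and 0.01 over all tested probe sets (log2, 3 h minus 0 h). CASP1 and CASP4 hold 10 of the 19, and without them 4 of 9 were called lower, with a median of -0.19. Probe sets of 1 gene read the same transcripts in part and are not independent.

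Signals of control probe sets moved with the groups too. The 24 probe sets for the poly-A spike transcripts, which are added to RNA before labelling, were all lower on every 3 h array than on any 0 h array (median difference -0.60, log2). Of the 18 probe sets for the hybridization spikes, 17 were likewise lower on every 3 h array (median difference -0.31). For actin, the log2 signal of the 5′ probe set minus that of the 3′ one, a sign of RNA integrity and labelling length, was -1.20 ± 0.06 at 3 h and -2.06 ± 0.07 at 0 h (SD, n = 3, two-sided exact permutation p = 0.1, the smallest that 3 against 3 arrays allow). The same measure for GAPDH was -0.13 ± 0.04 at 3 h and -0.39 ± 0.05 at 0 h (SD, n = 3, two-sided exact permutation p = 0.1). In actin and GAPDH alike, the 5′ signal was thus closer to the 3′ signal at 3 h. These differences run along with the treatment, so differences in preparing the RNA or the arrays cannot be told apart from it for any gene below, and their part in the results was not tested. In bulk RNA, fewer cells that express a gene and less RNA per cell cannot be told apart either.

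**Figure D1:**
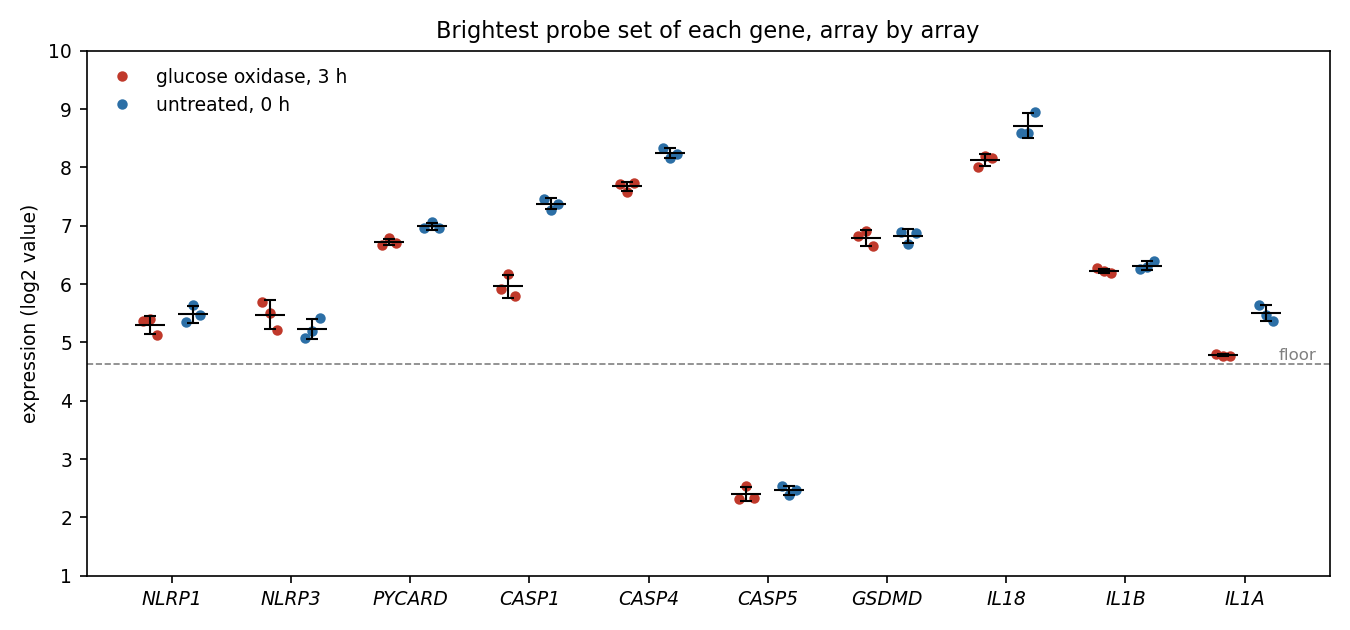
Expression (log2 value, y axis) of the brightest probe set of each of the 10 genes on each array, with the 3 h arrays in red left of the 0 h arrays in blue. Horizontal bars are means and error bars 1 SD (n = 3), and the dashed line is the floor of 4.64. The 3 h arrays lie below all 0 h arrays for PYCARD, CASP1, CASP4, IL18 and IL1A, and the groups overlap for NLRP1, NLRP3, CASP5, GSDMD and IL1B.

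RefSeq start-site windows were at hand for 6 of the 10 genes, and 4 are printed to let the letters before the start of 3 genes that were lower at 3 h (CASP4, PYCARD and IL1A) be read beside those of IL1B, which was not called. Each is the 250 bases upstream of the annotated start on GRCh38.p14, written 5′ to 3′ on the gene's strand, and none of the 4 was chosen by its sequence. Capitals mark matches, on either strand, to the interferon-stimulated response element (GAAA, NN and GAAA in a row), the STAT palindrome (TTCNNNGAA), NF-kB (GGG, NNNNN and CC in a row), AP-1 (TGANTCA) or the antioxidant response element (TGACNNNGC). A match is a match of letters and not a bound site.
CASP4 (chr11:104968575-104968824, minus strand): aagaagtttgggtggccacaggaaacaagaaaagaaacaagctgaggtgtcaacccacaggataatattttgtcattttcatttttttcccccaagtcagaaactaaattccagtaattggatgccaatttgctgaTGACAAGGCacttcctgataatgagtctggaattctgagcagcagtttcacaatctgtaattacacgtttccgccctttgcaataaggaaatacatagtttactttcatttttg
PYCARD (chr16:31202761-31203010, minus strand): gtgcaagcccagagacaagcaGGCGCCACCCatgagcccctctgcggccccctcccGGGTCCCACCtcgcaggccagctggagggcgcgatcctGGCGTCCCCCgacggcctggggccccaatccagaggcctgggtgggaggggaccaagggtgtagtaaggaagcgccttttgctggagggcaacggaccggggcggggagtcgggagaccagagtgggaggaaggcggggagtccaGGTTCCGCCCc
IL1A (chr2:112784494-112784743, minus strand): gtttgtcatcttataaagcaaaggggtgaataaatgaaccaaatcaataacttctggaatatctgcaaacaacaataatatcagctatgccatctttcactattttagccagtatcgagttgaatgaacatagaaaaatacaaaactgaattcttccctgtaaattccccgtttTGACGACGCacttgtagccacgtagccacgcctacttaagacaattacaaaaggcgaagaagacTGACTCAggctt
IL1B (chr2:112836780-112837029, minus strand): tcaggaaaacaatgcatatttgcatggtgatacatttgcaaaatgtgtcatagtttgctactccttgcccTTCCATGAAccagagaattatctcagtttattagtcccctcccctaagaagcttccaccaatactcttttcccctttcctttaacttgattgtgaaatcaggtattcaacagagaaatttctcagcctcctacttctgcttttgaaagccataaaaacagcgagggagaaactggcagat
The CASP4 window holds 1 match, to the antioxidant response element, which begins 114 bases before the start. The PYCARD window is rich in G and C and holds 4 matches to the NF-kB letters. The IL1A window holds an antioxidant response element match that begins 76 bases before the start and an AP-1 match that begins 12 bases before it. The IL1B window holds 1 match, to the STAT palindrome. No matches overlapped. Among all 35116 windows of this length in the table, 10.9% hold the antioxidant response element letters, 54.4% those of NF-kB, 6.57% those of AP-1, 6.57% the STAT palindrome and 3.02% the interferon-stimulated element.

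NLRP1 and NLRP3, the sensors, each had 1 probe set of their own above the floor, and neither passed. The only testable probe set of NLRP1 stood at 5.36, 5.41 and 5.12 at 3 h and at 5.35, 5.64 and 5.46 at 0 h (log2 values of the 3 arrays). These ranges overlap, and the difference of -0.19 had a 95% interval of -0.41 to 0.04 (limma, adjusted p = 0.150). The other NLRP1 probe sets lay under the floor, with differences of 0.27 and 0.38, so they point the other way. Averaged over its 3 probe sets, NLRP1 stood at 0.15 (adjusted p = 0.0949). A brighter probe set that the platform assigns to both NLRP1 and LOC728392 was not counted as a member, and it averaged 7.62 ± 0.12 at 3 h and 7.70 ± 0.08 at 0 h (SD, n = 3), a difference of -0.08 (adjusted p = 0.409). For NLRP3, the sensor most often tied to oxidative stress, the testable probe set read 5.70, 5.51 and 5.22 at 3 h and 5.08, 5.20 and 5.42 at 0 h. The lowest 3 h array lies inside the range of the 0 h arrays, and the difference was 0.24 (95% interval -0.06 to 0.54, adjusted p = 0.153). It passed without replicate 3 at 3 h (0.37, adjusted p = 0.0287), so that array decides the call. The second NLRP3 probe set averaged 3.68 ± 0.20 at 3 h and 3.48 ± 0.10 at 0 h (SD, n = 3), under the floor.

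PYCARD, the adaptor gene, was lower by a small amount in both of its probe sets. The brighter read 6.68, 6.79 and 6.71 at 3 h and 6.95, 7.06 and 6.96 at 0 h. All 3 h arrays lay below all 0 h arrays, and the difference was -0.27 (SE 0.06, adjusted p = 0.00733), which is 1.21-fold lower. The second read 6.29, 6.28 and 6.24 at 3 h and 6.51, 6.68 and 6.54 at 0 h, again with no overlap. Its difference of -0.30 (SE 0.07, adjusted p = 0.00551) was 0.03 from that of the first, with the gap between the 2 probe sets at 0.45 ± 0.06 at 3 h and 0.42 ± 0.03 at 0 h (two-sided exact permutation p = 0.4). All 3 h arrays lay below all 0 h arrays in 12 of the 19 tested probe sets of the 10 genes and above them in 0, against 30.5% below and 30.1% above over all tested probe sets.

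CASP1, the gene of the protease at the centre of the platform, had the largest decrease of the 10 genes by the brightest probe set of each, but not by the mean of all its probe sets (-0.53, against -0.72 for IL1A and -0.59 for IL18), and the size depended on the probe set. The brightest, 11732870_a_at, read 5.92, 6.18 and 5.79 at 3 h and 7.47, 7.28 and 7.37 at 0 h. The highest 3 h array is more than 1 log2 unit below the lowest 0 h array. The difference of -1.41 (SE 0.10, 95% interval -1.65 to -1.17, adjusted p = 4.36e-05) is 2.66-fold and the second in order from the most negative of all 29576. In 11738884_x_at the values were 5.73, 5.73 and 5.70 at 3 h and 6.70, 6.55 and 6.47 at 0 h, a 1.80-fold decrease (-0.85). In 11741885_x_at they were 5.68, 5.99 and 5.73 at 3 h and 6.52, 6.47 and 6.63 at 0 h, a 1.67-fold decrease (-0.74). In both, every 3 h array lies below every 0 h array. The dim 11742386_a_at fell by 0.48 (adjusted p = 0.00247), with values of 4.43 to 4.71 at 3 h and 4.97 to 5.17 at 0 h. The fifth, 11750553_x_at, overlapped between the groups, with 6.10, 6.37 and 6.04 at 3 h and 6.27, 6.22 and 6.59 at 0 h, and did not pass (-0.19, adjusted p = 0.207).

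The unequal sizes within CASP1 were set against each other on the same arrays, where shifts common to an array cancel. The brightest probe set minus 11750553_x_at was -0.20 ± 0.04 at 3 h and 1.01 ± 0.21 at 0 h (log2, SD, n = 3), a change of the gap of -1.22. Against the other 3 tested probe sets the gap changed by -0.93 to -0.56. In all 4 comparisons the arrays of the 2 groups did not overlap, each with an exact permutation p of 0.1, the smallest possible, among 10 such comparisons over CASP1, CASP4, PYCARD and GSDMD, of which 6 had no overlap. By the platform's naming, probe sets ending in _a_at read several transcripts of 1 gene, and those ending in _x_at hold probes that resemble other sequences. What each CASP1 probe set reads was not analysed here. Under the floor, 11741076_a_at and 11763186_at averaged 4.26 and 4.12 at 3 h and 4.84 and 4.74 at 0 h, without overlap, and would have been called in a fit with no floor (differences -0.58 and -0.61). The remaining pair stood at 2.51 and 2.42 at 3 h and 2.59 and 2.23 at 0 h. As 1 gene, CASP1 differed by -0.53 averaged over its 9 probe sets and by -0.74 over its 5 above the floor, and both passed (adjusted p = 0.000137 and 7.41e-05). A probe set that the platform assigns to both CASP1 and its neighbour CARD16 was not counted as a member, and it averaged 6.54 ± 0.05 at 3 h and 6.74 ± 0.09 at 0 h, a difference of -0.20 (adjusted p = 0.0369).

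**Figure D2:**
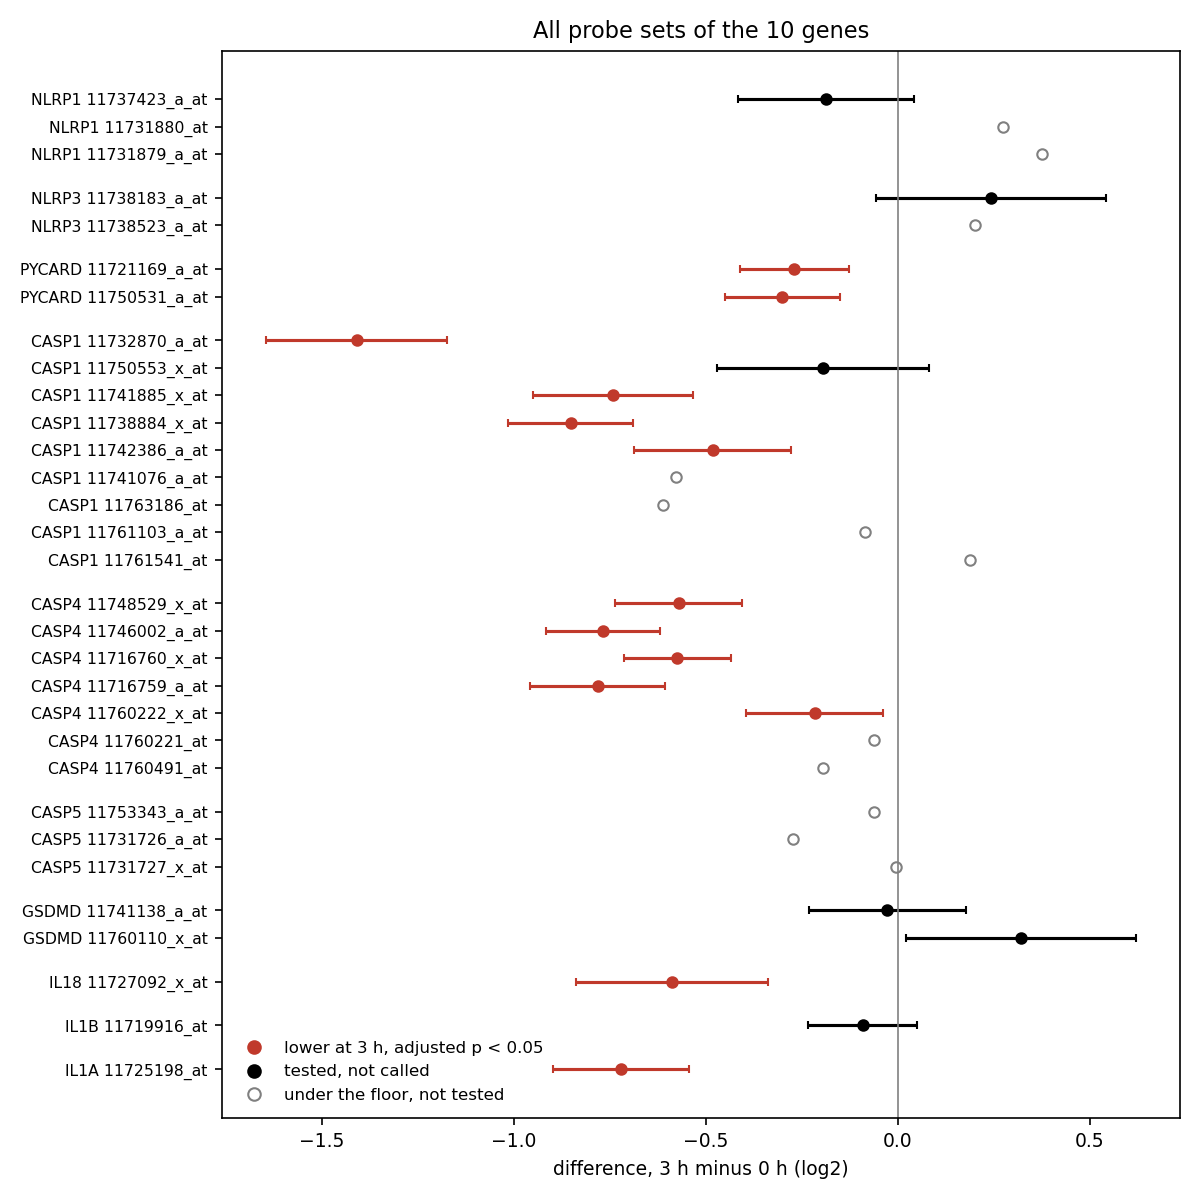
Difference between the means of the 3 h and 0 h arrays (log2, x axis) for all 31 probe sets of the 10 genes, ordered by gene and then by brightness. Filled points are tested probe sets with 95% intervals from limma, in red where called lower and black where not called, and open points lie under the floor. The 5 tested probe sets of CASP1 run from -1.41 to -0.19 and those of CASP4 from -0.78 to -0.22.

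CASP4, the gene of the lipopolysaccharide-binding caspase, was lower in all 5 of its tested probe sets. The probe set 11746002_a_at read between 7.43 and 7.60 at 3 h and 8.26 on each of the 0 h arrays. The 0 h arrays are nearly equal, and all 3 h arrays lie clearly below them (difference -0.77, SE 0.06, 1.70-fold, adjusted p = 7.48e-05). The probe set 11716759_a_at read between 5.98 and 6.01 at 3 h and 6.85, 6.62 and 6.86 at 0 h, a difference of -0.78 and thus almost the same. The brightest, 11748529_x_at, read 7.72, 7.58 and 7.73 at 3 h and 8.34, 8.16 and 8.23 at 0 h (-0.57, adjusted p = 0.000404). The similar 11716760_x_at also differed by -0.57. The smallest decrease was that of 11760222_x_at, with 6.32, 6.17 and 6.14 at 3 h and 6.50, 6.30 and 6.47 at 0 h. Its groups overlap, its adjusted p of 0.0464 is close to the threshold, and the call ended without replicate 1 or 3 at 0 h (-0.18, -0.19), without replicate 2 or 3 at 3 h (-0.20, -0.18), without a floor and with an intensity trend in the variance. Its gap to the brightest was 1.46 ± 0.11 at 3 h and 1.82 ± 0.05 at 0 h, without overlap (exact permutation p = 0.1). As 1 gene CASP4 differed by -0.45 averaged over its 7 probe sets (adjusted p = 7.50e-05). The 2 CASP4 probe sets under the floor averaged 3.47 and 2.99 at 3 h and 3.53 and 3.19 at 0 h.

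CASP5, which lies between CASP4 and CASP1 in the gene order of chromosome 11 and is followed after CASP1 by CARD16, gave only dim signal. Its brightest probe set read 2.31, 2.54 and 2.34 at 3 h and 2.53, 2.38 and 2.47 at 0 h, far under the floor. All 3 of its probe sets overlap between the groups, and none was tested. The genes on either side of it were thus both called lower, while CASP5 itself lay under the floor.

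GSDMD, the gene of the pore-forming substrate, did not pass. Its brighter probe set read 6.82, 6.91 and 6.65 at 3 h and 6.90, 6.68 and 6.87 at 0 h, and the ranges largely coincide (difference -0.03, 95% interval -0.23 to 0.18, adjusted p = 0.818). A dim second probe set, 11760110_x_at, read 4.86, 5.29 and 4.94 at 3 h and 4.64, 4.56 and 4.93 at 0 h. Its difference of 0.32 had an unadjusted p of 0.0388 and an adjusted p of 0.0703. It was called higher without replicate 1 at 3 h (0.41, adjusted p = 0.0460), without replicate 3 at 0 h (0.43, adjusted p = 0.0295) and with array weights (0.40).

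The 3 cytokine genes differed in size. IL18, whose product is stored as a precursor in many epithelia, has 1 probe set, 11727092_x_at, of the class with probes that resemble other sequences. It read 8.01, 8.20 and 8.16 at 3 h and 8.59, 8.59 and 8.96 at 0 h. No arrays overlap, replicate 3 at 0 h is the highest, and the difference of -0.59 (SE 0.11, 95% interval -0.84 to -0.34, adjusted p = 0.00250) is 1.50-fold. Without that array the difference was -0.46 (adjusted p = 0.00367). IL1A, the alarm cytokine gene, read 4.80, 4.77 and 4.76 at 3 h and 5.65, 5.47 and 5.37 at 0 h, in its single probe set. The 3 h arrays are nearly equal and close to the floor, so the size of the decrease (-0.72, SE 0.08, 1.65-fold, adjusted p = 0.000206) rests on dim signal at 3 h. IL1B, the gene of the main caspase-1 substrate, read 6.27, 6.23 and 6.19 at 3 h and 6.27, 6.29 and 6.40 at 0 h. The groups touch at 6.27, and the difference of -0.09 did not pass (95% interval -0.23 to 0.05, adjusted p = 0.251). The intervals of IL1A and IL1B do not overlap, but the difference between the 2 genes was not tested.

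**Figure D3:**
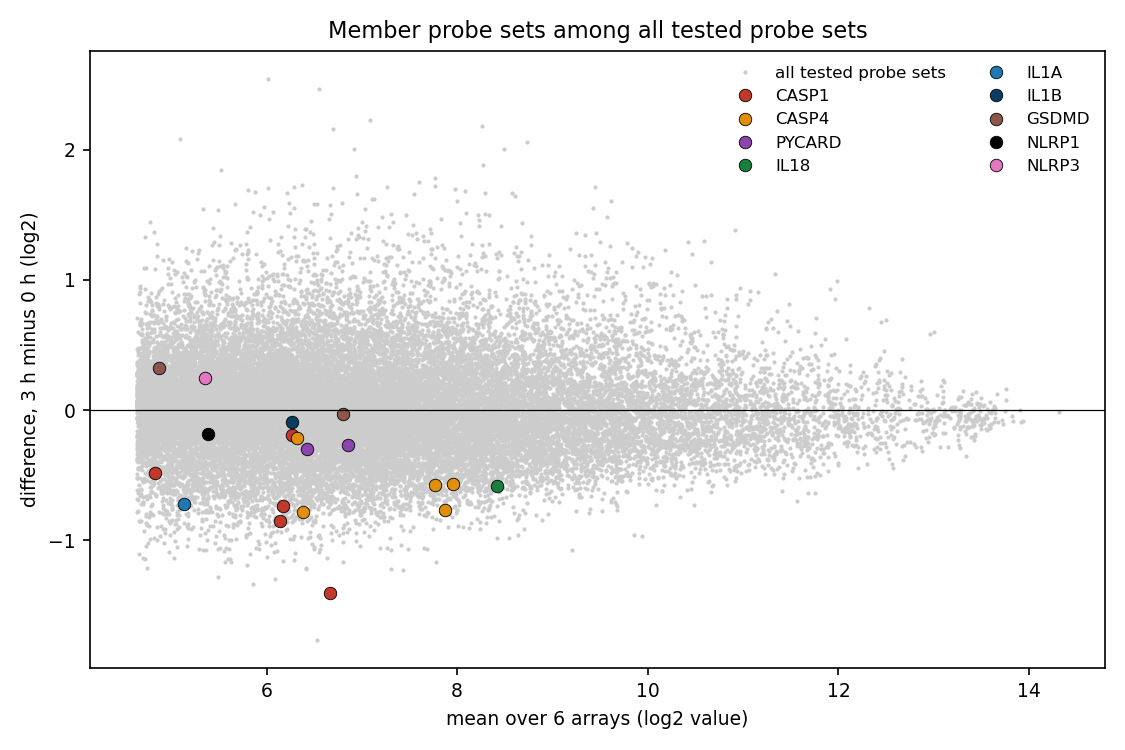
Difference between 3 h and 0 h (log2, y axis) against the mean over the 6 arrays (log2 value, x axis) for all 29576 tested probe sets in grey and the 19 tested member probe sets in colour. The brightest CASP1 probe set, at -1.41, lies at the lower edge of the cloud, and the other members lie within it.

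By distance over the 6 arrays, with each probe set centred on its 0 h mean, the genes most like the brightest CASP1 probe set were NUDCD1 (distance 0.32), ZCCHC10 (0.33) and ETNK1 (0.37), which differed by -1.33, -1.28 and -1.21. Those most like IL18 were PPCS (0.13), COG3 (0.14) and UBXN8 (0.15), with differences of -0.61, -0.57 and -0.60. Those most like IL1A were ASPM (0.09), IKZF5 (0.10) and RRP15 (0.11), with differences of -0.75, -0.70 and -0.67. None of the 9 belongs to the gene lists used here for the inflammasome or interleukin-1 pathways. With 6 arrays in 2 groups this likeness mainly reflects the size of the difference.

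Other sensors and regulators of inflammasomes moved in both directions. Of 37 tested probe sets in 13 genes, 6 were called higher, 6 lower and 25 not called, with a median of 0.04, and both shares are below the 25.6% and 25.8% found over all tested probe sets. Without replicate 2 at 0 h, 3 were called higher. The dipeptidyl peptidase gene DPP9, whose product restrains NLRP1 and CARD8, rose to 7.89 ± 0.07 at 3 h, against 7.47 ± 0.02 at 0 h (log2, SD, n = 3). CARD8, a sensor related to NLRP1, fell by 0.42 in 1 of its 2 tested probe sets and stood at -0.03 in the other. NEK7, the kinase that licenses NLRP3, fell by 0.32 and 0.33 in 2 of its probe sets, and the third, with a difference of 0.39, did not pass. BRCC3, a deubiquitinase that acts on NLRP3, fell by 0.42 in 1 of 6 probe sets. TXNIP, a thioredoxin-binding protein reported to bind NLRP3, stood at -0.04 in its brightest probe set (adjusted p = 0.565), and 1 of its 5 was called higher. The sensor genes NLRC4 and AIM2 averaged 2.74 and 2.66 at 3 h and 2.85 and 2.55 at 0 h, and CARD16 2.90 at 3 h and 2.95 at 0 h, in their brightest probe sets, all under the floor.

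Of 36 tested probe sets in 12 genes of interleukin-1 receptors and signalling proteins, 13 were called higher, 6 lower and 17 not called, with a median of 0.11, beside 25.6% higher and 25.8% lower over all tested probe sets. The 13 belong to the signalling genes MYD88, TOLLIP, IRAK1, TAB1, TAB2 and TAB3. The receptor genes had calls only in IL1RAP and SIGIRR, all lower. The rest of the 6 lower calls lie in the signalling genes TRAF6, MAP3K7 and TAB3, the last of which thus had calls in both directions. IRAK1, a kinase of the receptor complex, rose to 9.54 ± 0.05 at 3 h, against 8.93 ± 0.01 at 0 h (adjusted p = 0.000116). MYD88, the adaptor of these receptors, was called higher in 3 of 4 tested probe sets, the largest difference being 0.69, while its brightest stood at 0.04 (adjusted p = 0.675). TAB1, a partner of the TAK1 kinase, rose by 0.27 in 1 of its 3 tested probe sets. TRAF6, the ubiquitin ligase of the pathway, fell by 0.34, and SIGIRR, an inhibitory receptor, fell by 0.31. The receptor gene IL1R1 stood at -0.07 (adjusted p = 0.604). Its partner IL1RAP stood at -0.21 in its brightest probe set, which did not pass (adjusted p = 0.0694) but did without replicate 3 at 0 h (-0.27), with median centring (-0.25), a floor at the 60th percentile, an intensity trend or array weights (-0.24), and a second IL1RAP probe set fell by 0.45.

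Ligands and antagonists beyond the 10 genes were mostly dim. Only IL1RN and IL18BP, which block interleukin-1 and interleukin-18, had probe sets above the floor. Of the 3 tested, 0 were called in limma, beside 51.4% in either direction over all tested probe sets, and 0 had an unadjusted p under 0.05. IL1RN stood at -0.09 and IL18BP at 0.03 in their brightest probe sets. IL33, an alarm cytokine of the same family, lay just under the floor, with 4.04, 4.30 and 4.25 at 3 h and 5.29, 4.55 and 5.03 at 0 h in its brightest probe set. Its 3 h arrays were all lower (difference -0.76), and it was not tested. Without the floor, 3 probe sets of this list were called lower.

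Gasdermins other than GSDMD and the NINJ proteins, which act in membrane rupture, had 4 tested probe sets. Of these, 0 were called in limma, beside 51.4% in either direction over all tested probe sets, and 0 had an unadjusted p under 0.05. The count became 1 lower without replicate 2 at 0 h or with quantile normalization. It became 1 higher without replicate 3 at 3 h or with an intensity trend. GSDME stood at 0.11 (adjusted p = 0.149) and NINJ1 at 0.05 (adjusted p = 0.502). Priming receptors and ion channels had 22 tested probe sets in 10 genes, with 9 higher, 3 lower and 10 not called (median -0.01), beside 25.6% higher and 25.8% lower over all tested probe sets. Of the 9, 6 belong to LRRC8A and KCNK6. LRRC8A, the volume-regulated anion channel gene, was higher in all 3 of its probe sets, with 10.6, 10.6 and 10.7 at 3 h and 9.85, 9.84 and 9.84 at 0 h in the brightest. The potassium channel gene KCNK6 was also higher in all 3, by 0.58 to 0.61. The receptor gene TLR3 fell by 0.54. TLR1 fell by 0.60 in its single probe set, which is of a class that can read several genes. It averaged 5.05 ± 0.30 at 3 h and 5.65 ± 0.10 at 0 h (SD, n = 3). TLR4, the lipopolysaccharide receptor gene, stood at -0.23 (adjusted p = 0.0576), and passed without replicate 3 at 0 h (-0.31), with quantile normalization (-0.25), median centring (-0.27), a floor at the 60th percentile, an intensity trend, array weights (-0.26) or the replicate block. P2RX7, the receptor gene for extracellular ATP, averaged 4.70 at 3 h and 4.51 at 0 h, and all its probe sets lay under the floor by their mean over all arrays.

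Among caspases outside the inflammatory group, 10 probe sets in 6 genes were tested. Of these 3 were called higher, 7 not called and 0 lower in limma, with 0 lower at an unadjusted p under 0.05 and a median of 0.06. The share called higher is near the 25.6% of all tested probe sets, of which 25.8% were called lower. All 3 higher ones belong to CASP2, a caspase of the response to DNA damage and mitotic errors, whose brightest probe set read 8.66, 8.69 and 8.78 at 3 h and between 7.98 and 8.03 at 0 h (difference 0.70, adjusted p = 7.55e-05). CASP8, the initiator caspase of death receptors, stood at -0.10 (adjusted p = 0.300). In a fit with no floor, 2 of 21 probe sets of this list were called lower. With a floor at the 60th percentile 1 of 4 was called higher, and without probe sets ending in _s_at or _x_at 1 of 6. The difference between these caspases and the inflammatory ones was not itself tested.

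**Figure D4:**
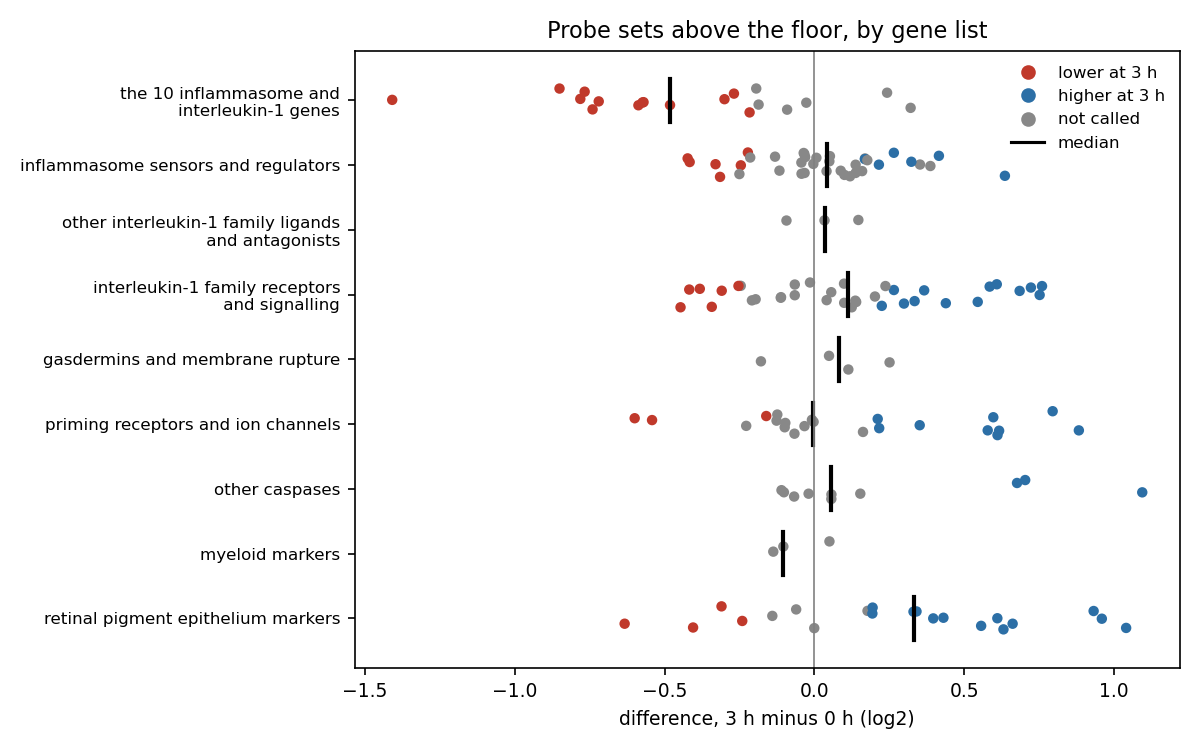
Difference between 3 h and 0 h (log2, x axis) of every tested probe set in the 10 inflammasome and interleukin-1 genes and in 8 gene lists, red where called lower, blue where called higher and grey where not called, with the median of each row as a black line. The 10 genes have a median of -0.48, and the medians of the lists run from -0.10 for myeloid markers to 0.33 for retinal pigment epithelium markers.

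Many of these genes are best known from myeloid cells, so markers of that lineage were read beside them. Of 10 myeloid markers, CSF1R and TYROBP were above the floor. The 8 others, among them PTPRC (2.54 ± 0.05 at 3 h and 2.44 ± 0.10 at 0 h) and CD14 (3.51 ± 0.25 at 3 h and 3.54 ± 0.18 at 0 h), were under it. Of the 3 tested probe sets 0 were called in limma, with 0 at an unadjusted p under 0.05. Over all tested probe sets, 51.4% were called in either direction. In a fit with no floor, 1 of 26 probe sets of the myeloid list was called higher. The summed linear level of the list, from the brightest probe set of each gene, ran from 212 to 221 at 3 h and from 210 to 225 at 0 h, and these ranges overlap. With 8 of the 10 markers under the floor, the sum is largely dim signal, and the part of such cells in the members' differences was not tested. Of 10 retinal pigment epithelium markers, RPE65 and RLBP1, which define the mature visual cycle, were under the floor in both groups. KRT8 and KRT18, keratins of simple epithelia, and the transcription factor genes MITF and OTX2 were above it. SERPINF1, BEST1, TYR and TTR were above it too, and BEST1, TYR and TTR each had 1 tested probe set, which was not called. Of 21 tested probe sets of this list 13 were called higher and 4 lower. The 4 lower became 2 without replicate 1 at 0 h or at a threshold of 0.01, and 0 of 14 with a floor at the 60th percentile. Over all tested probe sets, 25.6% were called higher and 25.8% lower. KRT8 rose by 0.40, KRT18 by 0.34 and MITF by 0.33 in their brightest probe sets. The other tested MITF probe set stood at -0.14 and was not called, and the MITF call ended at a threshold of 0.01. OTX2 was called higher in its 2 tested probe sets. SERPINF1, the gene of pigment epithelium-derived factor, fell by 0.41 in its brightest probe set. Its 4 tested probe sets, with differences of -0.63 to -0.24, are the 4 lower calls of this list. The summed linear level of the list ran from 10340 to 10980 at 3 h and from 8286 to 8548 at 0 h. KRT8 and KRT18 hold 10 of the 13 higher calls and most of the sum, and the other 8 markers summed to 882 to 960.5 at 3 h and 795.5 to 829 at 0 h. Without probe sets ending in _s_at or _x_at, 2 of 6 were called higher and 1 lower. The part of this list in the members' differences was not tested.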

How the data were processed

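The 6 samples, 3 in each group, were run on 1 array each after 3′ IVT labelling, according to the labels. In the deposited table each probe set has a log2 value per array (the scale was read from the values), with array medians of 5.29 to 5.34. MAS5 and RMA are named in the submitters' processing notes without version or role, and any further step by the authors is not given in the sources used here. Groups came from the sample titles. The members and gene lists were chosen with earlier results of these data known.

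Gene names came from the platform's annotation, through the 44988 probe sets that have 1 symbol. The 79 control probe sets and those whose mean over the 6 arrays was under the 40th percentile (4.64) were left out. The other 29576 entered 1 fit in limma 3.58.1 (R 4.3.3) by lmFit and eBayes, and p-values were adjusted over all of them by the Benjamini-Hochberg method, with a threshold of 0.05. This step was tested on simulated data. "Rose", "fell" and "called" refer to this fit, and differences are 3 h minus 0 h. Probe sets of 1 gene were compared by two-sided exact permutation tests of their gap on each array. Named genes are all members, up to 4 called genes of each list with the smallest adjusted p by their brightest probe set, 18 fixed genes and the 3 nearest genes of CASP1, IL18 and IL1A, passing over symbols of unnamed reading frames and those starting with LOC, LINC, MIR or FLJ. Of the fixed genes, 1 is not reported here. Precision is limited by having 3 arrays a group, among which the SD of a probe set had a median of 0.09 at 3 h and 0.07 at 0 h. Arrays with the same replicate number did not deviate together (correlations of deviations across probe sets -0.01, -0.04 and -0.19), so the main fit has no block. Alternatives covered normalization, the floor, variance moderation, array weights, the block, the threshold, the class of probe set and each array left out. Averaging the probe sets above the floor was added after seeing the data. Promoter windows are from RefSeq on GRCh38.p14, and figures were drawn with matplotlib 3.10.9.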

Additional observations from a re-analysis of the deposited data

How the results depend on the processing

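The count of member probe sets called lower was 13 of 19 with quantile normalization, median centring, array weights and the replicate block. It was 12 of 19 with an intensity trend and at a threshold of 0.01. With no floor it was 14 of 31, beside 7707 of 49293 over all probe sets. With a floor at the 60th percentile it was 11 of 14, beside 6359 of 19717. It was 7 of 11 without probe sets ending in _s_at or _x_at, which leaves fewer to test. Over all probe sets, 4667 of 19341 were then called lower and 4927 higher. Leaving out each array gave 12 to 13 members lower and 0 to 1 higher, and 6066 to 7458 lower and 6228 to 7241 higher over all probe sets. With array weights 1 member was called higher, a GSDMD probe set. The brightest CASP1 probe set stayed between -1.52 and -1.32, IL1A between -0.78 and -0.64 and IL18 between -0.65 and -0.46. These ranges are over the 14 or 15 alternatives that could be fitted to each, with each call kept. IL18 could not be fitted without probe sets ending in _s_at or _x_at, since its only probe set is of that class. The replicate block changed the call of no member and called TLR4 (-0.23, adjusted p = 0.0308).

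Signs turned for some values that did not pass. Over the fits that leave out 1 array each, the brighter GSDMD probe set ran from -0.0939 to 0.0460, IL1RN from -0.230 to 0.0417, IL1R1 from -0.158 to 0.0454, IL18BP from -0.0637 to 0.117, MYD88 from -0.0027 to 0.1045 and the gap change of CASP4 probe sets 11748529_x_at and 11716760_x_at from -0.0414 to 0.0408. IL18BP also turned with quantile normalization (-0.0015) and median centring (-0.0035). Averaged probe sets gave 0.15 for NLRP1 and, with all or those above the floor, 0.15 for GSDMD. The cause was not tested. All CASP5 probe sets, the second NLRP3 probe set and all but the brightest NLRP1 probe set with 1 symbol lay under the floor. The tested probe sets of NLRP3 and NLRP1 averaged 5.36 and 5.39 over the 6 arrays. Of 240 list counts under the alternatives, 20 moved by more than 1.5 times.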
